A study of Mus musculus with 18 samples.

Results

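The genes described here encode 8 neuropeptide precursors (Adcyap1, Tac1, Npy, Gal, Calca, Calcb, Cartpt and Penk) and 2 granins (Scg2 and Chga). They were chosen by symbol, through the Entrez identifiers of the count tables, and make up 10 of the 27179 genes counted. Because expression differences between these same libraries were known when the genes were chosen, their levels, differences and calls are given as a description, without a test. RNA-seq was performed on 18 libraries, 3 for each of 6 groups of differentiating mouse embryonic stem cells (ESCs), which the study describes as independent differentiations.

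All groups were grown as embryoid bodies and patterned with 1 µM retinoic acid (RA) and 0.5 µM of the Hedgehog agonist SAG. Day 2 progenitors came from a line labeled iCre and received no doxycycline (Dox). The iHoxc6, iHoxc8, iHoxc9 and iHoxc10 neurons had been in Dox at 3 µg/ml for 48 h by their collection on day 4. Each came from its own ESC line with a single Flag-tagged Hox transgene that Dox switches on. Control neurons were taken from the iHoxc6 line on day 4, with no Dox added. Each line carries the transgene at the Hprt locus under a Dox-responsive promoter, which is not restricted to a cell type. The cultures are mixtures of motor neurons (MNs), interneurons and remaining progenitors. The levels are bulk values, in which fewer cells of a type and less RNA per cell cannot be told apart. Control and iHoxc6 libraries shared a sequencing run, as did iHoxc9 and iHoxc10 libraries. Day 2 and iHoxc8 libraries each had a run to themselves. Where iHoxc8, iHoxc9 or iHoxc10 is compared with control, the induced Hox gene, its line and its run cannot be told apart, and day 2 differs from control in run, line and day. In every comparison of an iHox group with control, iHoxc6 included, the Dox treatment itself cannot be told apart from the induced Hox gene.

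Neuropeptides are cut from larger precursor proteins in the regulated secretory pathway. Granins are acidic proteins that aggregate in the trans-Golgi network and help to form the dense-core vesicles in which the peptides are stored. Prohormone convertases cleave the precursors inside these vesicles, carboxypeptidase E trims the ends, and released peptides act on G protein-coupled receptors. In the spinal cord, the calcitonin gene-related peptide of Calca is known from motor neurons, PACAP (from Adcyap1) and CART (from Cartpt) from sympathetic preganglionic neurons, and substance P and enkephalin (from Tac1 and Penk) from dorsal horn circuits.

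Promoter sequence is shown for the 2 granins, both of which were higher in control neurons than on day 2, and for the 4 peptide precursors that differed most between the iHox groups. RefSeq promoter windows (GRCm38.p6) were found for 8 of the 10 members. The 150 bases before the annotated start are given 5′ to 3′ on the strand of the gene. They lie at chr1:79440027-79440176 (minus strand), chr12:102554791-102554940 (plus strand), chr17:93198867-93199016 (plus strand, the upstream one of 2 Adcyap1 windows), chr13:99900684-99900833 (minus strand), chr19:3414545-3414694 (minus strand) and chr6:49822560-49822709 (plus strand). The Adcyap1 and Cartpt windows lie inside the gene spans given below, so they belong to starts within those spans. Capitals mark CGTCA, the short form of the cAMP response element (CRE), on either strand, and TTTAT, a core letter pattern bound by posterior Hox proteins, on either strand.
Scg2: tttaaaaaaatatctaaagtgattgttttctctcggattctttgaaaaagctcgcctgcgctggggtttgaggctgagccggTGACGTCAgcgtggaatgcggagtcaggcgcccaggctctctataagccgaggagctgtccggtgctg
Chga: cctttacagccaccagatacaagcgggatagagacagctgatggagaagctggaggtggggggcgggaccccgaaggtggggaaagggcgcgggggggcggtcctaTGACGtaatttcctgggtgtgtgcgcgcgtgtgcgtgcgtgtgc
Adcyap1: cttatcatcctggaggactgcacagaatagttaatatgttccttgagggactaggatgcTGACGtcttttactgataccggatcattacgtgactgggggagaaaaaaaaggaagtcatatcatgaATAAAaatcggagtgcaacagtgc
Cartpt: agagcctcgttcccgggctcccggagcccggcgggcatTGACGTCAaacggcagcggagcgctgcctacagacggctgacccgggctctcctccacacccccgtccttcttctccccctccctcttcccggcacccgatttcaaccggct
Gal: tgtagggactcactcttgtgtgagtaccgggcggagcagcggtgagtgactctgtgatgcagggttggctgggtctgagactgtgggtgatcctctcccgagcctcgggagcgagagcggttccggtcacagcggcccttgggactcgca
Npy: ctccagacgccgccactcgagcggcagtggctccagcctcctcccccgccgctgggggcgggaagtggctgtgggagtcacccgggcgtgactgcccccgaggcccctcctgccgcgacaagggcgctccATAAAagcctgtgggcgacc
The full CRE, TGACGTCA, which contains CGTCA on both strands, was present in Scg2 from position -68 and in Cartpt from position -112, counted back from the base before the start as -1. It was present in 1.36% of all 32851 RefSeq windows of this length. Chga at -44 and Adcyap1 at -91 held CGTCA alone, on the opposite strand, which 13.3% of all windows held. The TTTAT pattern was read on the opposite strand in Adcyap1 at -24 and Npy at -20, and 24.1% of all windows held it. TATAAA, whose reverse complement contains TTTAT, was in 7.57% of all windows. The longer pattern TGATTTAT, bound by Hox proteins together with PBX, was in none of the 9 member windows and in 0.496% of all windows. These matches describe letters in the sequence only.

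Levels are given in CPM (counts scaled by library size and by edgeR's TMM factors), and 3 counts correspond to between 0.0883 and 0.122 CPM depending on the library. Total counts per library ranged from 24498630 to 33168533, and these limits cover counting error only. Differences are log2 fold changes ± SE from edgeR's quasi-likelihood fit of all 18 libraries over 20944 genes. A gene was called at a Benjamini-Hochberg adjusted p under 0.01 with a log2 fold change beyond 2. The 4 iHox groups were compared with the same 3 control libraries. As a check of the labels, the induced genes were high in the matching neurons. Hoxc6 reached 514.5 ± 16.2 CPM in iHoxc6 neurons (SD, n = 3), Hoxc8 389.4 ± 25.4 in iHoxc8, Hoxc9 224.3 ± 11.2 in iHoxc9 and Hoxc10 430.1 ± 4.22 in iHoxc10. Transgene and endogenous transcripts are not separated by these counts. In control, Hoxc6 was at 3.18 CPM and the other 3 genes were at 0.036 CPM or less on average.

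Marker genes placed the cultures as labeled. All 7 motor neuron markers and all 7 pan-neuronal markers were called higher in control than in day 2 progenitors, and 3 of 5 pluripotency markers (Pou5f1, Zfp42 and Dppa5a) were called lower, with Pou5f1 and Nanog at 0 in every control library. Of the 7 neural progenitor markers, Sox1 and Pax6 were called lower, and the summed level of the list was 943 to 1027 CPM on day 2 and 791 to 1490 CPM in control, so progenitor genes were still expressed on day 4.

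In control against day 2, 5 of the 10 members were called higher, beside 6.74% of all genes tested, and 1 was called lower, beside 5.82%. No member was called in iHoxc6 against control, where 0.043% of genes were called higher and 0.0716% lower, or in iHoxc8 against control, where the shares were 0.138% and 0.0812%. In iHoxc9, 3 members were called higher and 0 lower, beside 1.53% and 1.17% of genes. In iHoxc10, 1 member was called higher and 0 lower, beside 0.773% and 0.711%. Between iHoxc9 and iHoxc10, 1 was called higher and 1 lower in iHoxc9, beside 0.711% and 0.597%. Because the members were chosen with these differences known, nothing is read from how these shares compare.

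**Figure D1:**
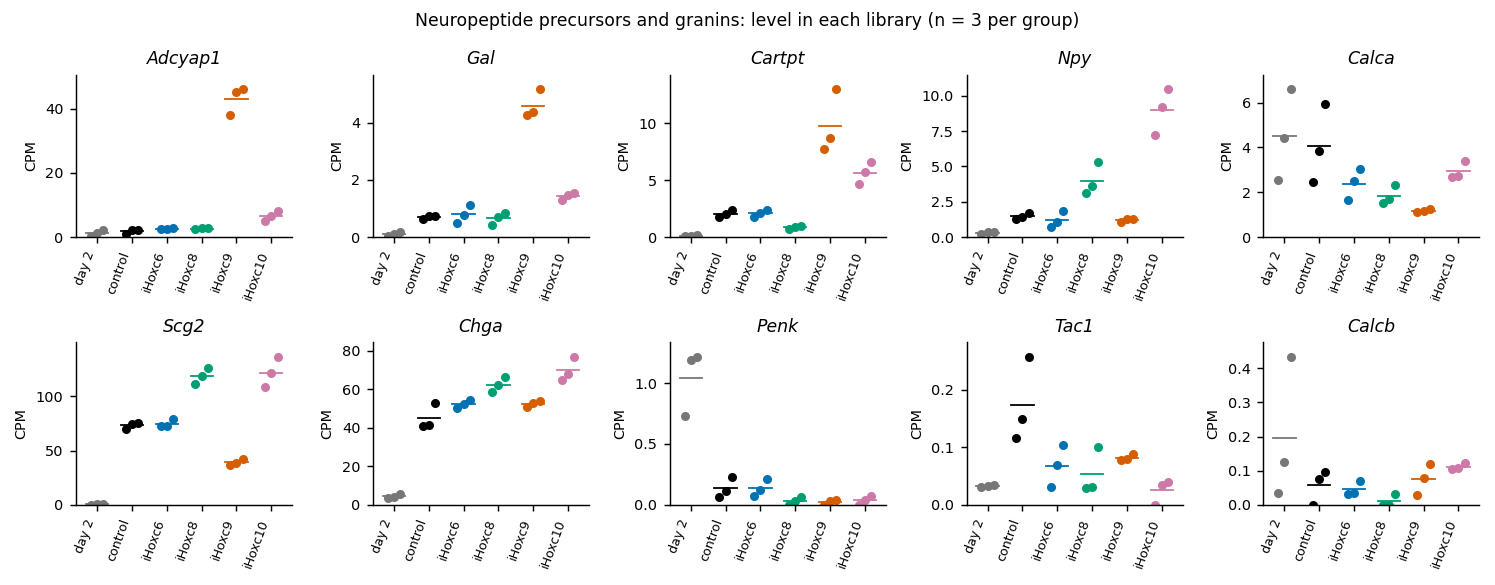
TMM-normalized level (CPM, linear axes that start at 0) of each member in each of the 18 libraries, shown as points, with the group mean as a line (n = 3 per group). Adcyap1, Gal and Cartpt were highest in iHoxc9, Npy in iHoxc10, and Scg2 was lower in iHoxc9 than in any other day 4 group.

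Per exon length, Scg2 and Chga had the highest levels of all members in every day 4 group. Scg2 (Entrez 20254, chr1:79434366-79440026) encodes secretogranin II, a granin that is itself cut into peptides such as secretoneurin. In day 2 progenitors Scg2 was at 0.775, 0.499 and 0.0937 CPM, and in control neurons at 75.1, 70.2 and 74.1 CPM. This was the largest difference of any member in any comparison, at 7.33 ± 0.28 on the log2 scale (161-fold). In iHoxc6 neurons Scg2 was at 78.7, 73.0 and 73.0 CPM, which overlapped control.

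The other iHox groups departed from control in both directions. Scg2 was at 111.6, 125.9 and 119.1 CPM in iHoxc8 neurons and at 136.2, 121.2 and 108.6 CPM in iHoxc10 neurons, all above the control libraries. In iHoxc9 neurons it was at 41.9, 36.9 and 38.9 CPM, all below them. The differences from control were 0.70 ± 0.19 in iHoxc8, 0.74 ± 0.19 in iHoxc10 and -0.90 ± 0.19 in iHoxc9, none of which passed the fold threshold. Between iHoxc9 and iHoxc10, from 1 run, the difference was -1.64 ± 0.19, and every iHoxc9 library was below every iHoxc10 library.

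Chga (Entrez 12652, chr12:102554941-102565027) encodes chromogranin A, the most widely used protein marker of dense-core vesicles. It was at 3.44, 5.59 and 4.28 CPM on day 2 and at 41.1, 53.0 and 41.5 CPM in control, a difference of 3.35 ± 0.16. Per kilobase of exon, the day 2 mean was 1.61 CPM for Chga and 0.181 CPM for Scg2. The iHox groups spanned a narrower range for Chga than for Scg2. The iHoxc6 libraries were at 50.4 to 54.4 CPM, the iHoxc8 libraries at 58.4 to 66.3 CPM, the iHoxc9 libraries at 50.7 to 53.8 CPM and the iHoxc10 libraries at 64.9 to 76.7 CPM. Only iHoxc8 and iHoxc10 lay wholly above control, by 0.46 ± 0.14 and 0.63 ± 0.14. In iHoxc9, where Scg2 was lower, Chga overlapped control and the difference was 0.22 ± 0.14.

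The pan-neuronal marker sum moved with the granins between days. It was 275 to 551.6 CPM on day 2, 4874 to 5356 in control, 5281 to 6220 in iHoxc9 and 5915 to 7071 in iHoxc10, and its part in the granin levels was not tested. The neural crest and sympathetic marker sum, for cells that are themselves rich in granins, was 105.6 to 144.2 CPM in control and 16.8 to 24.4 CPM in iHoxc9, with 143.6 to 179.7 CPM for iHoxc6, 161.8 to 197.5 CPM for iHoxc8 and 81.4 to 95.7 CPM for iHoxc10. Of these 7 markers, Th, Dbh and Sox10 were called lower in iHoxc9 than in control, and none was at 0 in every iHoxc9 library. Its part in the Scg2 level was not tested.

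Adcyap1 (Entrez 11516, chr17:93198245-93206541) encodes PACAP, a peptide that raises cAMP in its target cells. It was the member with the largest difference between an iHox group and control. Adcyap1 was at 46.0, 37.9 and 45.3 CPM in iHoxc9 neurons and at 2.31, 0.886 and 2.28 CPM in control, and the libraries did not overlap. The log2 difference was 4.55 ± 0.36 (23.4-fold). In iHoxc10 neurons Adcyap1 was at 6.65, 8.03 and 5.02 CPM, above every control library, with a difference of 1.84 ± 0.35. That value crossed 2 when control replicate 1 (2.05), control replicate 3 (2.03) or iHoxc10 replicate 3 (2.03) was left out. It was 1.52 without control replicate 2, the lowest control library.

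Within their shared run, iHoxc9 exceeded iHoxc10 for Adcyap1 by 2.71 ± 0.32. The iHoxc6 libraries, at 2.48, 2.77 and 2.50 CPM, and the iHoxc8 libraries, at 2.40, 2.77 and 2.69 CPM, lay just above control by 0.49 ± 0.36 and 0.51 ± 0.36, differences close to their errors. Day 2 progenitors, at 1.38, 2.20 and 0.344 CPM, overlapped control. The order of the group means was therefore iHoxc9, iHoxc10, iHoxc8, iHoxc6, control and day 2, with overlapping libraries between iHoxc8 and iHoxc6 and between control and day 2.

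Gal (Entrez 14419, chr19:3409915-3414544) encodes galanin, a mostly inhibitory peptide. It was at 4.26, 5.18 and 4.38 CPM in iHoxc9 neurons and at 0.739, 0.616 and 0.749 CPM in control, 2.71 ± 0.30 apart on the log2 scale (6.54-fold). The iHoxc10 libraries, at 1.54, 1.47 and 1.3 CPM, were also all above control, by 1.03 ± 0.32. Gal did not separate iHoxc6 or iHoxc8 from control, and their libraries ranged from 0.438 to 1.12 CPM. Day 2 libraries held 1, 3 and 6 counts of Gal, against 16 to 23 in control, so that the called difference of 2.65 ± 0.45 rests on 10 counts on the day 2 side.

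Cartpt (Entrez 27220, chr13:99898483-99910179) encodes the CART prepropeptide. In iHoxc9 neurons it was at 8.68, 13.0 and 7.72 CPM, in iHoxc10 at 5.74, 6.56 and 4.70 CPM and in control at 2.38, 2.00 and 1.80 CPM. Both iHox groups lay above control, by 2.25 ± 0.23 in iHoxc9 and 1.46 ± 0.23 in iHoxc10. Without iHoxc9 replicate 2, the highest library, the first of these was 1.99 and no longer met the fold threshold. In iHoxc8 neurons Cartpt was lower than in control, at 0.680, 1.00 and 0.876 CPM, by -1.28 ± 0.26. The iHoxc6 libraries, at 2.09, 2.37 and 1.77 CPM, overlapped control. On day 2, the libraries held 2, 3 and 5 counts, and control exceeded day 2 by 4.19 ± 0.36.

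Adcyap1, Gal and Cartpt had the same order of iHoxc9 above iHoxc10 above control. Over the 18 libraries, Pearson's r of log2(CPM + 1) was 0.95 between Adcyap1 and Gal, 0.923 between Gal and Cartpt and 0.849 between Adcyap1 and Cartpt. These libraries fall into 6 groups, so the values describe group levels. Other neuronal markers moved with these genes. The summed level of 8 spinal interneuron markers was 3.54 to 4.38 CPM in control, 29.0 to 36.35 in iHoxc9 and 7.25 to 12.65 in iHoxc10. Sim1 and Slc17a6, at 17.1 and 11.85 CPM on average, made up most of the iHoxc9 sum and were the members called higher there, and Sim1 was also called higher in iHoxc10. Of the others in iHoxc9, every library was above control for Lhx5 and Pax2 and below control for Evx1 (0.341 against 0.710 CPM), En1, Gata3 and Gad1 overlapped control, and none of the 8 was at 0 in all libraries of a group. The sum of 7 motor neuron markers was 544.5 to 570.8 CPM in control, 298.5 to 323.7 in iHoxc9 and 486 to 546.9 in iHoxc10. All iHoxc9 libraries were below control for 5 of the 7 and above for 0. All iHoxc10 libraries were below control for 3 and above for 1, and 1 marker was called lower there. Isl2 was at 45.4 CPM in control, 46.4 in iHoxc9 and 7.45 in iHoxc10. The part of these cell types in the precursor levels was not tested.

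Npy (Entrez 109648, chr6:49822710-49829507) encodes neuropeptide Y, which is known from inhibitory interneurons and sympathetic neurons. It followed another order, with iHoxc10 highest. Npy was at 7.21, 10.5 and 9.24 CPM in iHoxc10 neurons and at 1.74, 1.43 and 1.27 CPM in control, 2.59 ± 0.28 apart (6.04-fold). The iHoxc8 libraries, at 3.58, 5.31 and 3.10 CPM, formed a separate group between them, 1.43 ± 0.28 above control. In iHoxc9, at 1.10, 1.27 and 1.27 CPM, and in iHoxc6, at 1.05, 1.84 and 0.729 CPM, the libraries overlapped control.

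Npy was therefore the member that most clearly separated iHoxc10 from iHoxc9 in the opposite direction to Adcyap1, with a difference of -2.88 ± 0.29 within 1 run. On day 2 it was at 0.337, 0.366 and 0.187 CPM, below every control library by a difference of 2.31 ± 0.36. The glial marker sum was 82.8 to 103 CPM in control and 127.8 to 159.5 in iHoxc10, and its part in the Npy level was not tested. Of these 6 markers, 0 were called higher and 1 lower in iHoxc10 than in control. All iHoxc10 libraries were above control for 1 marker and below control for 1, and the list median was -0.007. Gfap was at 0 in every control and iHoxc10 library.

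Calca (Entrez 12310, chr7:114625981-114636910) produces calcitonin or calcitonin gene-related peptide by alternative splicing, which a count per gene does not separate. It was at 1.10, 1.24 and 1.15 CPM in iHoxc9 neurons and at 3.82, 2.46 and 5.95 CPM in control, a difference of -1.80 ± 0.34 that passed the fold threshold without control replicate 2, the lowest control library (-2.06). The summed level of 7 sensory neuron markers was 124.3 to 180.8 CPM in control and 87.25 to 117.7 in iHoxc9. Most of the control sum was Prph, at 143.5 CPM on average, against 13.3 CPM in iHoxc9. Prph and Runx1 were called lower in iHoxc9, and Ntrk2 was called higher. Every iHoxc9 library was above control for 5 of the 7 markers and below control for 2, and the list median was 0.91. No marker was at 0 in all libraries of a group. The part of these cells in the Calca level was not tested. The iHoxc8 libraries, at 1.51, 2.34 and 1.69 CPM, were also below every control library, by -1.15 ± 0.32. The control values spread widely, and the iHoxc6, iHoxc10 and day 2 libraries overlapped them. Calca was 4.41, 6.59 and 2.56 CPM on day 2, so that it was the only member other than Penk and Calcb with a higher mean in progenitors than in control, although these groups overlapped for Calca. Within the shared run, iHoxc9 was below iHoxc10 by -1.33 ± 0.35.

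Penk (Entrez 18619, chr4:4133536-4138815), the precursor of enkephalins, was higher in every day 2 library than in any day 4 library. Day 2 libraries held 36, 22 and 38 counts (1.21, 0.732 and 1.19 CPM) and control libraries 2, 3 and 6, a called difference of -2.94 ± 0.52. In iHoxc8, iHoxc9 and iHoxc10 neurons no library held more than 2 counts. The ratio of iHoxc9 to control, 2 counts to 11, was 0.188 with an exact 95% interval of 0.0202 to 0.859, scaled to total counts.

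Tac1 and Calcb were at the limit of detection. Tac1 (Entrez 21333, chr6:7555061-7562978), the precursor of substance P, had 8, 3 and 4 counts in control, 1 in each day 2 library and at most 3 in any iHox library. The ratio of iHoxc10 to control, 2 counts to 15, was 0.138 (exact 95% interval 0.0154 to 0.595). Calcb (Entrez 116903, chr7:114716555-114723368) encodes a second calcitonin gene-related peptide and is a close paralog of Calca, so its few reads could be shared with Calca. It had 1, 13 and 4 counts on day 2 and at most 3 in any day 4 library. No fold is given where both groups had at most 3 counts in every library.

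**Figure D2:**
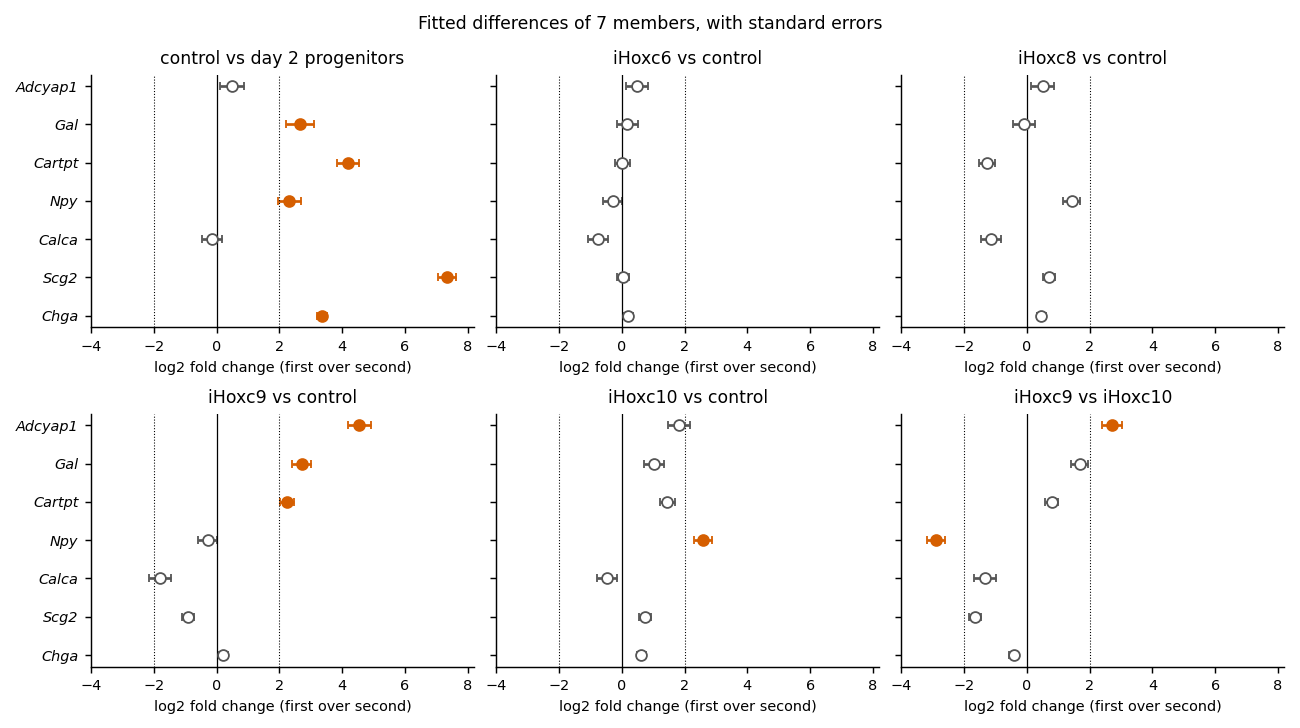
Fitted log2 fold change (first group over second, points) with its SE (bars) for 7 members in 6 comparisons, from a fit of 18 libraries. Filled orange points were called, open points were not, and dotted lines mark a log2 fold change of -2 and 2; Adcyap1 reached 4.55 in iHoxc9 against control and Npy 2.59 in iHoxc10.

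Levels of different genes were compared per kilobase of exon. In control the order was Scg2 at 29.1, Chga at 16.4, Npy at 2.61, Calca at 2.42, Cartpt at 1.61, Gal at 0.890 and Adcyap1 at 0.484 CPM per kilobase. In iHoxc9 it was Chga at 19.0, Scg2 at 15.6, Adcyap1 at 11.4, Cartpt at 7.67, Gal at 5.85, Npy at 2.14 and Calca at 0.690 CPM per kilobase. Adcyap1 thus moved from seventh to the third place, next to the granins. In iHoxc10 the third place was taken by Npy, at 15.9 CPM per kilobase, and in day 2 progenitors Calca came before Chga, at 2.69 and 1.61 CPM per kilobase. With the longest transcript as the length, from 7 to 10 of the members kept their place in a group.

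The 8 precursors together were at 10.5 ± 2.56 CPM in control, 60.0 ± 1.35 in iHoxc9 and 25.8 ± 3.11 in iHoxc10 (SD, n = 3), and at 7.61 to 10.1 CPM on average in day 2, iHoxc6 and iHoxc8. The 2 granins together were at 118.4 ± 4.25 CPM in control, 91.7 ± 1.68 in iHoxc9, 181 ± 9.83 in iHoxc8 and 191.8 ± 8.27 in iHoxc10. In iHoxc9 the precursor sum was thus above every control library while the granin sum was below every one. Both sums cover only the members. The lower granin sum came from Scg2, as Chga was at 52.5 CPM in iHoxc9 and 45.2 in control. Outside the sums, the precursor Sst was at 0.530 CPM in iHoxc9 and 195.1 in control, and Apln at 25.9 and 2.86. Of the 5 other granin family genes, every iHoxc9 library was above control for 2 and below control for 0. On the CPM scale most of the precursor sum in iHoxc9 came from Adcyap1, at a mean of 43.1 CPM.

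**Figure D3:**
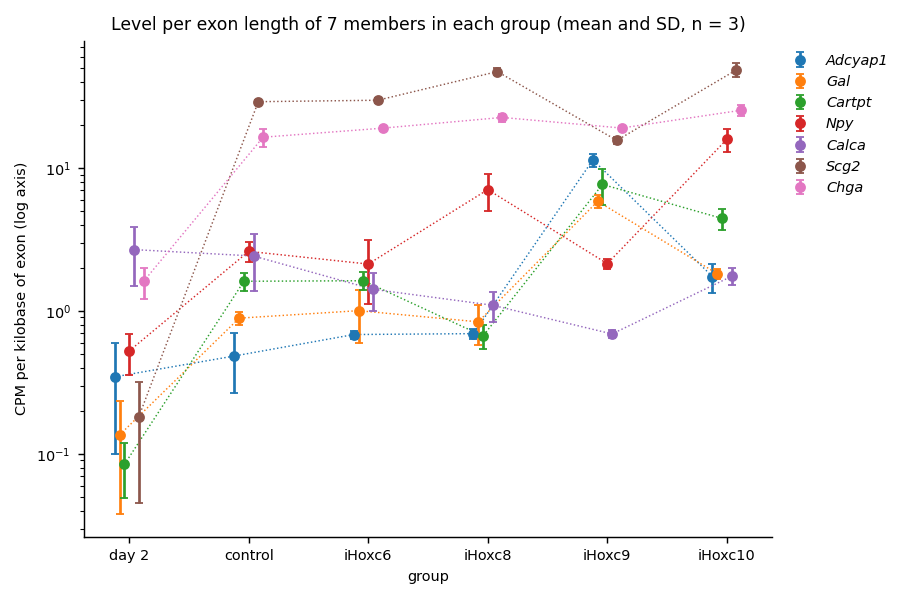
Mean level per kilobase of exon (CPM per kilobase, log axis) with SD (bars, n = 3) for 7 members in each group, with dotted lines that only join the points of a gene. Adcyap1 went from 0.484 in control to 11.4 in iHoxc9, and Scg2 from 29.1 to 15.6.

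The 5 other members of the granin family were all called higher in control than on day 2, beside 6.74% of all genes tested. Scg3, which binds chromogranin A in vesicle membranes, differed by 3.29 ± 0.18 (130 against 13.3 CPM, adjusted p = 5.75e-13), and Chgb by 2.96 ± 0.16 (adjusted p = 4.97e-13). Pcsk1n, an inhibitor of Pcsk1, differed by 4.66 ± 0.33, Vgf by 3.35 ± 0.31 and Scg5, the chaperone of Pcsk2, by 2.24 ± 0.23. The median log2 fold change of the list was 3.29, against 0.0 for all genes tested. Scg5 fell to 1.97 without control replicate 3.

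None of these 5 genes was called in any iHox group against control, where the list medians ran from 0.20 in iHoxc6 to 0.81 in iHoxc10 (iHoxc8 0.44, iHoxc9 0.32), and medians of all genes tested lay between 0.0 and 0.017. In iHoxc9, where Scg2 was lower, Chgb and Scg3 differed from control by 0.68 ± 0.14 (adjusted p = 0.00127) and 0.68 ± 0.16 (adjusted p = 0.00362). Pcsk1n, like Scg2, was lower in every iHoxc9 library than in every iHoxc10 library. Unlike Scg2, Pcsk1n overlapped control in iHoxc9, and in iHoxc6 every library was above control (23.58 to 36.15 against 15.38 to 20.01 CPM). It was at 17.7 CPM in control, 47.6 in iHoxc10 and 14.0 in iHoxc9, and differed between iHoxc9 and iHoxc10 by -1.77 ± 0.26 (adjusted p = 5.27e-05), which passed the fold threshold without iHoxc10 replicate 1 (-2.02).

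The list of 10 peptide processing enzymes had a median of 0.79 in control against day 2. Of these genes, 3 were called higher and 0 lower, beside 6.74% and 5.82% of all genes tested. They were Pcsk2 (3.77 ± 0.20, adjusted p = 4.62e-13), the main convertase of many neuropeptide precursors, Cpe (2.08 ± 0.12, adjusted p = 2.12e-12) and the glutaminyl cyclase Qpct (2.19 ± 0.27, adjusted p = 4.33e-07). Qpct was at 1.98 without day 2 replicate 3. Pcsk2 was not called in any iHox group, and its means lay between 29.3 and 43.7 CPM.

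In iHoxc9 against control, 1 enzyme was called higher and 1 lower, beside 1.53% and 1.17% of all genes tested. Pcsk5, a convertase of the constitutive and regulated pathways, was at 10.2 to 12.3 CPM in iHoxc9 and 1.01 to 1.77 CPM in control (2.99 ± 0.21, adjusted p = 7.39e-10). Pcsk1 was at 0.157 to 0.637 CPM in iHoxc9 and 1.04 to 3.28 CPM in control (-2.12 ± 0.46, adjusted p = 0.00157). In iHoxc10, Pcsk1 was the only enzyme called (-2.05 ± 0.46, adjusted p = 0.00204), and 0.773% of all genes tested were called higher and 0.711% lower. Both Pcsk1 calls rest on control replicate 1, and were at -1.39 and -1.32 without it. In iHoxc8, Pcsk1 was not called (1.41 ± 0.37, adjusted p = 0.023) but reached 2.14 and was called without that library. They were also lost without iHoxc9 replicate 1 (-1.76) and without iHoxc10 replicate 1 (-1.84). Pam, which amidates the ends of peptides such as PACAP, neuropeptide Y and galanin, was at 15.01 CPM in control and 46.9 in iHoxc9, a difference of 1.65 ± 0.16 below the fold threshold (adjusted p = 7.17e-08). Pcsk6 differed by 1.2 ± 0.21 and Cpe by 0.57 ± 0.12 in the same comparison. Furin, Cpd and Pcsk7 differed from control by at most 0.56 on the log2 scale in any iHox group.

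**Figure D4:**
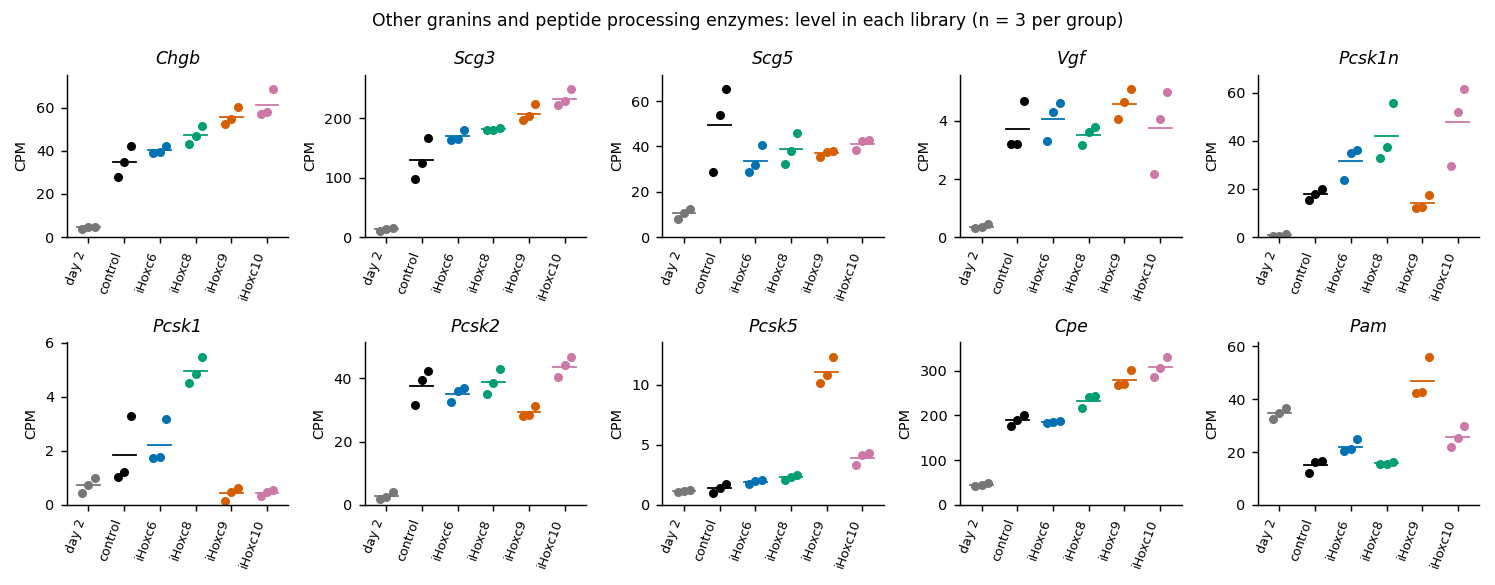
Level (CPM, linear axes that start at 0) of 5 other granin family genes and 5 peptide processing enzymes in each library (points) with group means (lines, n = 3 per group). Pcsk5 and Pam were highest on average in iHoxc9 at 11.1 and 46.9 CPM, and Pcsk1n was at 14.0 CPM in iHoxc9 and 47.6 in iHoxc10.

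Among 12 genes of the dense-core vesicle machinery, the list median was 1.17 in control against day 2. Of these genes, 4 were called higher and 2 lower, beside 6.74% and 5.82% of all genes tested. The priming factor Cadps (3.26 ± 0.15, adjusted p = 4.87e-14) and the vesicle synaptotagmin Syt4 (2.87 ± 0.28, adjusted p = 1.22e-08) were among the first. Rab27a (-3.28 ± 0.45, adjusted p = 1.74e-06) and its effector Sytl4 (-3.65 ± 0.61, adjusted p = 2.31e-05) were the genes called lower. Ptprn (2.50 ± 0.17) and Hid1 (2.55 ± 0.19) were the others called higher, named after their values were seen. In iHoxc9 only Syt4 was called, at 7.95 to 9.55 CPM against 32.1 to 52.2 CPM in control (-2.14 ± 0.27, adjusted p = 4.39e-06), and the value was -1.88 without control replicate 1. Syt4 was also below iHoxc10 (-2.01 ± 0.27, adjusted p = 2.1e-05). That call ended at -1.99 in the fit of all 18 libraries with the replicate number as a block. It ended as well without iHoxc9 replicate 2 (-1.93) or iHoxc10 replicate 1 (-1.85). In iHoxc10 only Cadps2 was called, at 1.09 against 4.48 CPM (-2.04 ± 0.22, adjusted p = 1.15e-06), and it did not pass without control replicate 1 (-2.00), control replicate 2 (-1.94) or iHoxc10 replicate 2 (-1.86). The list medians in iHoxc9 and iHoxc10 against control were 0.41 and 0.35. Of all genes tested, 1.53% were called higher and 1.17% lower in iHoxc9, and 0.773% and 0.711% in iHoxc10. Between iHoxc9 and iHoxc10 the shares were 0.711% and 0.597%.

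Receptors of the peptides and their partners Ramp1, Ramp2 and Ramp3 were listed as 20 genes, of which 19 could be tested. No receptor was listed for CART. In control against day 2, 4 were called higher and 1 lower, beside 6.74% and 5.82% of all genes, with a list median of 0.40. Tacr1, the substance P receptor, was at 6.93 CPM in control and 0.365 CPM on day 2 (4.22 ± 0.39, adjusted p = 4.99e-09). Npy2r and Tacr3 were at 1.18 and 1.33 CPM in control, and day 2 libraries held at most 3 counts of either. Galr2, a galanin receptor, was the fourth called higher, with 31 counts in control and 4 on day 2, and was named after its values were seen. Ramp2, a partner of the calcitonin receptor-like receptor, was called lower (-2.55 ± 0.39, adjusted p = 7.44e-06), with -1.74 without day 2 replicate 3.

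In iHoxc9, 1 receptor was called higher and 4 lower than in control, beside 1.53% and 1.17% of all genes tested. Calcrl, the subunit that binds calcitonin gene-related peptide and adrenomedullin, was at 11.8 to 17.4 CPM in iHoxc9 and 0.337 to 0.899 CPM in control (4.56 ± 0.33, adjusted p = 1.22e-09). It was 3.25 ± 0.30 above iHoxc10 in the shared run (adjusted p = 9.85e-08). Thus in iHoxc9 Calcrl was called higher while Calca, a precursor of only 1 of its ligands, was at its lowest mean. Of the partner subunits of Calcrl, Ramp1 was at 0.348 CPM in iHoxc9 and 0.337 in control. Ramp2 was at 1.39 and 0.545 CPM, and Ramp3 at 6.5 and 9.86 CPM. Tacr1 was lower in iHoxc9 than in control (-2.37 ± 0.33, adjusted p = 1.73e-05) and than in iHoxc10 (-2.15 ± 0.33, adjusted p = 0.000122). Without iHoxc9 replicate 3 or iHoxc10 replicate 2, the latter was -1.89 or -1.79. Npy2r was lower in iHoxc9 (-2.63 ± 0.45, adjusted p = 0.000164) and in iHoxc10 (-2.18 ± 0.43, adjusted p = 0.000687), where Npy was highest. The latter was -1.85 without iHoxc10 replicate 3.

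Tacr3 was also called lower in iHoxc9 (-4.19 ± 0.84, adjusted p = 0.000932) and iHoxc10 (-3.15 ± 0.75, adjusted p = 0.00344). These calls rest on control replicate 1, which held 93 counts, and ended without it at -2.74 and -1.70. The iHoxc10 call also ended without iHoxc10 replicate 1 (-2.95) or replicate 2 (-3.00). The fourth receptor called lower in iHoxc9, Npy4r, had 2 to 4 counts in the control libraries and 0 in each iHoxc9 library, which allows up to 3 counts in each, and was named after its values were seen. In iHoxc10, 0 receptors were called higher and 2 lower, beside 0.773% and 0.711% of all genes tested. The list medians were 0.23 in iHoxc9 and 0.03 in iHoxc10.

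Of 50 other neuropeptide precursors, 38 could be tested and 8 reached a mean of 1 CPM in any group, so most precursor genes were near the limit of detection. In control against day 2, 4 were called higher and 2 lower, beside 6.74% and 5.82% of all genes tested. Sst, the precursor of somatostatin, was at 195.1 ± 26.9 CPM in control and 14.4 ± 4.04 CPM on day 2 (3.76 ± 0.20, adjusted p = 5.8e-13). Sct was also called higher (2.15 ± 0.32, adjusted p = 6.24e-06), a call that ended without control replicate 3 (1.90) or day 2 replicate 3 (1.82). Grp, Agrp (both higher) and Nps (lower) complete these counts, on 9, 40 and 0 counts in control against 0, 8 and 14 on day 2, and were named after their values were seen. Trh, the precursor of thyrotropin-releasing hormone, fell from 9.17 CPM on day 2 to 0.534 CPM in control (-4.11 ± 0.31, adjusted p = 1.75e-10).

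In iHoxc9 against control, 3 of these precursors were called higher and 2 lower, beside 1.53% and 1.17% of all genes tested. Apln, the precursor of apelin, was at 22.9 to 29.4 CPM against 2.47 to 3.50 CPM (3.18 ± 0.20, adjusted p = 1.59e-10), and Nms, the precursor of neuromedin S, at 6.09 to 7.92 CPM against 0.231 to 0.739 CPM (3.63 ± 0.34, adjusted p = 4.56e-08). Sst was at 0.391 to 0.756 CPM against 166.4 to 219.7 CPM (-8.53 ± 0.28, adjusted p = 9.66e-16), the largest decrease of any gene in these lists. Grp was called higher on 78 counts against 9, and Trh lower (-2.62 ± 0.50, adjusted p = 0.00057), both named after their values were seen because they complete these counts. In iHoxc10, 0 were called higher and 2 lower, beside 0.773% and 0.711% of all genes tested. Sst was at 2.19 to 2.66 CPM (-6.30 ± 0.24, adjusted p = 6.98e-14), and the other gene was again Trh, with at most 3 counts in an iHoxc10 library. The Sst libraries of iHoxc6 (103.4 to 149.7 CPM) and iHoxc8 (52.4 to 66.3 CPM) lay below control without being called.

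Between iHoxc9 and iHoxc10, 2 other precursors were called higher and 2 lower in iHoxc9, beside 0.711% and 0.597% of all genes tested. Pnoc, the precursor of nociceptin, was at 0.350 CPM in iHoxc9 and 2.65 CPM in iHoxc10 (-2.87 ± 0.41, adjusted p = 4.16e-05), the same direction as Npy, and Sst was lower by -2.24 ± 0.29 (adjusted p = 1.13e-05). Nms (2.14 ± 0.30, adjusted p = 3.61e-05) and Apln (2.01 ± 0.19, adjusted p = 1.43e-07) were higher in iHoxc9, as Adcyap1 was. The Apln call sits at the fold threshold. It was lost in 10 of the alternatives, among them the fit with the replicate number as a block (2.00 after rounding) and the fits without iHoxc9 replicate 2 (1.90), iHoxc10 replicate 2 (2.00) or iHoxc10 replicate 3 (1.82). Nms was lost without iHoxc10 replicate 1 (2.00) or replicate 3 (1.96). The list medians were -0.01 in iHoxc9 against control, -0.34 in iHoxc10 against control and 0.49 in iHoxc9 against iHoxc10.

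**Figure D5:**
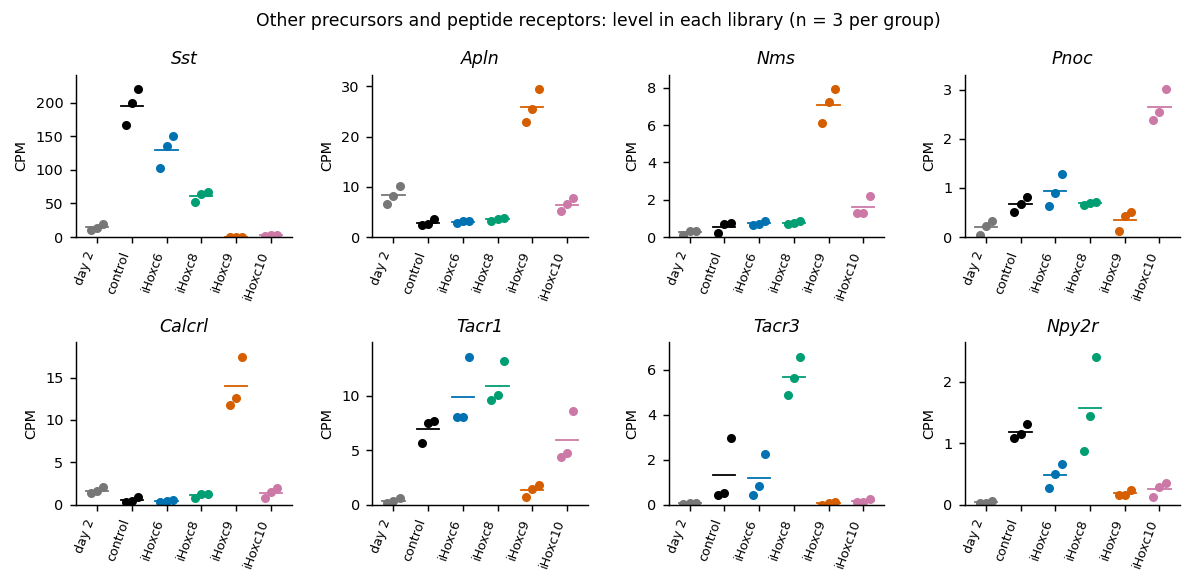
Level (CPM, linear axes that start at 0) of 4 other peptide precursors and 4 peptide receptors in each library (points) with group means (lines, n = 3 per group). Sst was at 195.1 CPM on average in control and 0.530 CPM in iHoxc9, while Apln, Nms and Calcrl were highest in iHoxc9.

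The genes whose levels were most like each member were found by Pearson's r of log2(CPM + 1) over the 18 libraries among 10801 genes. For Adcyap1 they were Fam181b (r = 0.958), at 83.9 CPM in iHoxc9 and 22.0 in control, and Daam2 (0.922). For Gal they were Gsg1l (0.953) and the channel gene Pkd2l1 (0.95), which was at 43.4 CPM in iHoxc9, 18.9 in iHoxc10 and 4.22 in control. For Cartpt they were Ank (0.966) and the Nogo receptor gene Rtn4r (0.961), and for Npy Blcap (0.949) and Tnfrsf21 (0.912), both highest in iHoxc10.

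For Scg2 the closest gene was Gfod1 (0.992). For Chga they were Mapk8ip2 and Rusc1 (both 0.997). Scg2 and Chga had an r of 0.974 with each other. For Calca they were Nme1 (0.908) and Mtg1 (0.853), and for Penk Ing5 (0.971) and Stra8 (0.968), a retinoic acid-induced gene at 163 CPM on day 2 and at most 0.302 CPM on average in any day 4 group. The 18 libraries share 6 groups, and the difference between days sets most of these values for Scg2, Chga and Penk. Of the 16 genes, 4 stayed among the 2 closest over day 4 libraries only, and 1 when ranked by Spearman's rho.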

How the data were processed

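RNA-seq was analysed for 18 libraries in 6 groups, assigned with their replicate numbers from the labels. The authors made poly(A) libraries with ERCC spike-ins, aligned reads to mm10 with STAR (2.7.0c), assigned them to RefSeq genes with featureCounts and merged entries that shared an Entrez identifier, and the raw counts per gene were deposited. The strand setting of the counting is not given in the sources used here. Other assays of the study were not analysed here.

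Symbols and coordinates came from RefSeq on GRCm38, the assembly mm10 names, and 25275 of 27179 identifiers matched. Counts were tested with edgeR 4.0.16 in R 4.3.3 (TMM factors, quasi-likelihood test, a group term) over the 20944 genes that had 1 count or more in some iHox library. The code was first tested on simulated data. Totals of 24498630 to 33168533 counts put 3 counts at 0.0883 to 0.122 CPM. Exact intervals of count ratios are binomial, on total counts. With 3 libraries per group, no exact two-sided permutation test of a single value can pass 0.05.

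The members and gene lists were chosen with earlier results of these data known. The adjusted p-values of list genes come from the edgeR fit over all genes tested. As list genes were mostly named by their calls and size of change, these values describe the genes and are no independent support. Named from the lists were, per comparison, up to 4 called genes, taken by size of change among those that reached a mean of 1 CPM in either group and whose libraries did not overlap. Any granin or enzyme could be named, and the 2 most similar genes of each member with at least 1 CPM in a group, among genes with a mean of at least 5 CPM. Marker genes served as checks. Some marker genes and a similar gene are not reported here.

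Replicate numbers come from the labels. For iHoxc9 and iHoxc10, deviations from the group means correlated within each pair of equal numbers over 10968 genes (r = 0.719, 0.519 and 0.738), so these numbers were taken to pair the samples. The values given are from the fit with no block, and the replicate block is an alternative. The SE and adjusted p-values of iHoxc9 against iHoxc10 therefore do not use this pairing. Alternatives were DESeq2 1.42.0, other scalings and filters, other fold thresholds, fits of only the groups compared, a replicate block, and fits without each library.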

Additional observations from a re-analysis of the deposited data

Results flagged for a closer look

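Several genes moved in opposite directions from control in different iHox groups, with every library of one group above and every library of the other below all 3 control libraries. The control libraries are shared, and for the pairs that include iHoxc6 or iHoxc8 the difference between the groups was not tested. The gap between the group effects is given on the log2 scale. For Cartpt it was 3.52 between iHoxc9 (above) and iHoxc8 (below) and 2.73 between iHoxc10 (above) and iHoxc8 (below). For Scg2 it was 1.60 between iHoxc8 (above) and iHoxc9 (below) and 1.64 between iHoxc10 (above) and iHoxc9 (below), the latter from libraries of the shared run and short of the fold threshold. For Pcsk1 it was 3.53 between iHoxc8 (above) and iHoxc9 (below) and 3.46 between iHoxc8 and iHoxc10 (below). For Syt4 it was 3.56 between iHoxc8 (above) and iHoxc9 (below). For Tacr1 it was 2.88 between iHoxc6 (above) and iHoxc9 (below) and 3.02 between iHoxc8 (above) and iHoxc9. For Tacr3 it was 6.26 between iHoxc8 (above) and iHoxc9 (below) and 5.22 between iHoxc8 and iHoxc10 (below). For Pnoc it was 2.86 between iHoxc10 (above) and iHoxc9 (below), and this difference was tested within the shared run by edgeR's quasi-likelihood test (adjusted p = 4.16e-05). The Pnoc libraries of iHoxc9 barely cleared control, with a highest value of 0.5003 CPM against a lowest control value of 0.5006 CPM. In the pairs with iHoxc8, the run and the line differ as well as the Hox gene.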

How the results depend on the processing

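No result changed direction with a call under any alternative. The number of members called in each comparison stayed within 1.5 times under other scalings, filters, DESeq2, fits of only the groups compared and the replicate block, which gave 6, 0, 0, 3, 1 and 2 calls in the order of the report. The fold threshold mattered most. With a log2 fold change beyond 1, the members called were 2 in iHoxc8, 3 in iHoxc10 and 4 between iHoxc9 and iHoxc10, and with no fold threshold 2, 5 and 4, with 5 in iHoxc9. Leaving out a library gave 1 to 2 members in iHoxc10, with 2 without control replicate 1, control replicate 3 or iHoxc10 replicate 3. For the list genes, calls beyond 1 were 3 in iHoxc8, 14 in iHoxc10 and 11 between iHoxc9 and iHoxc10, and with no fold threshold 3, 20 and 12, with 20 in iHoxc9. The share of all genes called at these looser thresholds is not given here, so nothing is read from the size of these counts. Leaving out a library gave 0 to 2 list calls in iHoxc8 (2 without control replicate 1) and 3 to 7 in iHoxc10 (3 without control replicate 1). The replicate block gave 24, 0, 0, 12, 6 and 5 list calls, and 7 in a fit of iHoxc9 and iHoxc10 alone, and beside Syt4 and Apln it changed no other call of a gene named by rule. The comparisons with control had at least 1 pair of equal numbers with a correlation at or below 0.1, so there the samples share only a number. Of single list genes, 35 values lost and 2 gained a call under an alternative. Depth limits Tac1, Calcb and Penk most.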
